A study of Homo sapiens with 4 samples.

Results

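Transcripts of the TGF-beta and BMP pathway were followed in FT190 cells depleted of SMARCA4. The genes were 48 named ligands, receptors, SMADs, antagonists and targets, matched by symbol to the gene annotation of the count table. All 48 were found among its 63241 genes, and 44 of them passed the filter on low counts, which left 18781 genes for testing. FT190 is an established human line, labelled as an ovarian epithelial cell of wild-type genotype, and was derived by immortalising secretory cells of fallopian tube epithelium. The shSMARCA4 group held 2 libraries from cells expressing a short hairpin RNA against SMARCA4, the ATPase of SWI/SNF (BAF) chromatin remodelling complexes. The control group held 2 libraries from cells with the PLKO vector. The labels name 1 hairpin treatment (SMARCA4_sh1) and give no culture of origin for the libraries of a group, so the spread behind the p-values may be technical.

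Ligands of this family are secreted as dimers and bring together type I and type II receptor kinases at the cell surface. TGF-beta and activin receptors phosphorylate SMAD2 and SMAD3, and BMP receptors phosphorylate SMAD1, SMAD5 and SMAD9. The phosphorylated SMADs enter the nucleus with SMAD4 and act on target genes, among them the ID genes and the pathway's own inhibitors. In epithelial cells the TGF-beta branch is known for restraining growth and for driving matrix production and mesenchymal traits.

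Levels are given as CPM, counts per 1e+06 of the scaled library total. SMARCA4 stood at 34 and 36.3 CPM in the shSMARCA4 libraries, against 171 and 162 CPM in the control libraries, a log2 fold change of -2.24 ± 0.0524 (adjusted p = 1.86e-07, edgeR's quasi-likelihood test, Benjamini-Hochberg adjusted). Total counts were 28536665 and 27137414 in the shSMARCA4 libraries and 33641343 and 32618516 in the control libraries, and mitochondrially encoded transcripts took 3.19% and 3.08% of counts with the hairpin and 3.31% and 4.06% in controls. Chi-square per degree of freedom was 1.96 between the shSMARCA4 libraries and 6.94 between the control libraries, above sampling noise in both groups, so no library was a copy of another and each was entered in the fit by itself. Of the markers checked, PAX8 of the secretory lineage averaged 63.4 CPM in shSMARCA4 cells and 58.6 CPM in control cells and KRT8 averaged 560.0 CPM in shSMARCA4 cells and 759.6 CPM in control cells, while EPCAM, at 0.284 CPM in shSMARCA4 cells and 0.477 CPM in control cells, and CDH1, at 3.7 CPM in shSMARCA4 cells and 4.16 CPM in control cells, were low, and KRT19 had between 0 and 5 counts in each library. The 10 secretory markers summed to 1262 and 1265 CPM in the shSMARCA4 libraries, against 1853 and 1747 CPM in the control libraries. Of the 8 tested, 3 fell and 1 rose, with KRT7 at -0.97 ± 0.0551 and WT1 at 0.35 ± 0.0782. Endothelial markers summed to between 2.56 and 3.18 CPM in each library, and FOXJ1 of ciliated cells had at most 1 count. The ciliated list summed to 305.9 and 306.4 CPM in the shSMARCA4 libraries, against 422.6 and 386 CPM in the control libraries. Most of this was TUBB4B, which averaged 304 CPM in shSMARCA4 cells and 402 CPM in control cells and fell (-0.40 ± 0.0483). Immune markers summed to between 26.01 and 29.04 CPM in each library. CD68 made up most of that sum, at 23.48 CPM in shSMARCA4 cells and 23.03 CPM in control cells. Of 5 immune markers tested, 1 rose and 1 fell. Markers of fibroblasts or smooth muscle were present, with 8 of 10 above 1 CPM on average. They summed to 439 and 461 CPM in the shSMARCA4 libraries, against 886 and 851 CPM in the control libraries, and 7 of 10 tested fell. Over all genes tested, 13.8% rose and 15.8% fell. Of the muscle genes in the fibroblast or smooth muscle list, desmin (DES) was near the floor and fell, at 0.0543 CPM in shSMARCA4 cells and 0.461 CPM in control cells. The others were higher: in shSMARCA4 and control cells TAGLN averaged 112 and 316 CPM, and ACTA2 averaged 13.3 and 36.6 CPM. CNN1 averaged 3.19 and 16.8 CPM, and MYH11 averaged 3.37 and 3.21 CPM. The part of these markers in the results below was not tested. In bulk RNA, fewer cells of a type and less RNA per cell cannot be told apart.

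Pathway transcripts changed often and in both directions. Of the 44 members tested, 13 rose and 14 fell, together 61.4%, against 29.7% of all genes tested. The members were chosen with earlier results of these data known, and the choice may have raised their share. In each direction the share of all genes was 13.8% for a rise and 15.8% for a fall. Well-expressed genes pass the test more often: of 10878 protein-coding genes that averaged 5 CPM or more, 39.8% were called, and of the 36 members at that level 24 (66.7%) were. The median absolute log2 fold change was 0.30 over the tested members and 0.19 over all genes tested, and the signed medians were 0.06 and 0.00. A change of at least 1 on the log2 scale was reached by 2 members that passed the test, INHBE and TGFBR3, and 2.97% of all genes tested met the same rule. The groups did not overlap for 36 of the 44 members (81.8%), against 65.9% of all genes tested. Among protein-coding genes that averaged 5 CPM or more, the groups did not overlap for 73.9%, and for 86.1% of the members at that level. Here and below, a value with ± after a gene is the log2 fold change of shSMARCA4 over control with its standard error, n = 2 libraries in each group, and rose or fell means an adjusted p under 0.05 by edgeR. Of the genes called over the whole table, 46.6% had risen with the scaling used and 59.5% with library totals alone. For the members these shares were 48.1% and 51.7%. With no filter on low counts, 8 members rose and 10 fell, and the share of all genes called was then 9.08%.

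**Figure D1:**
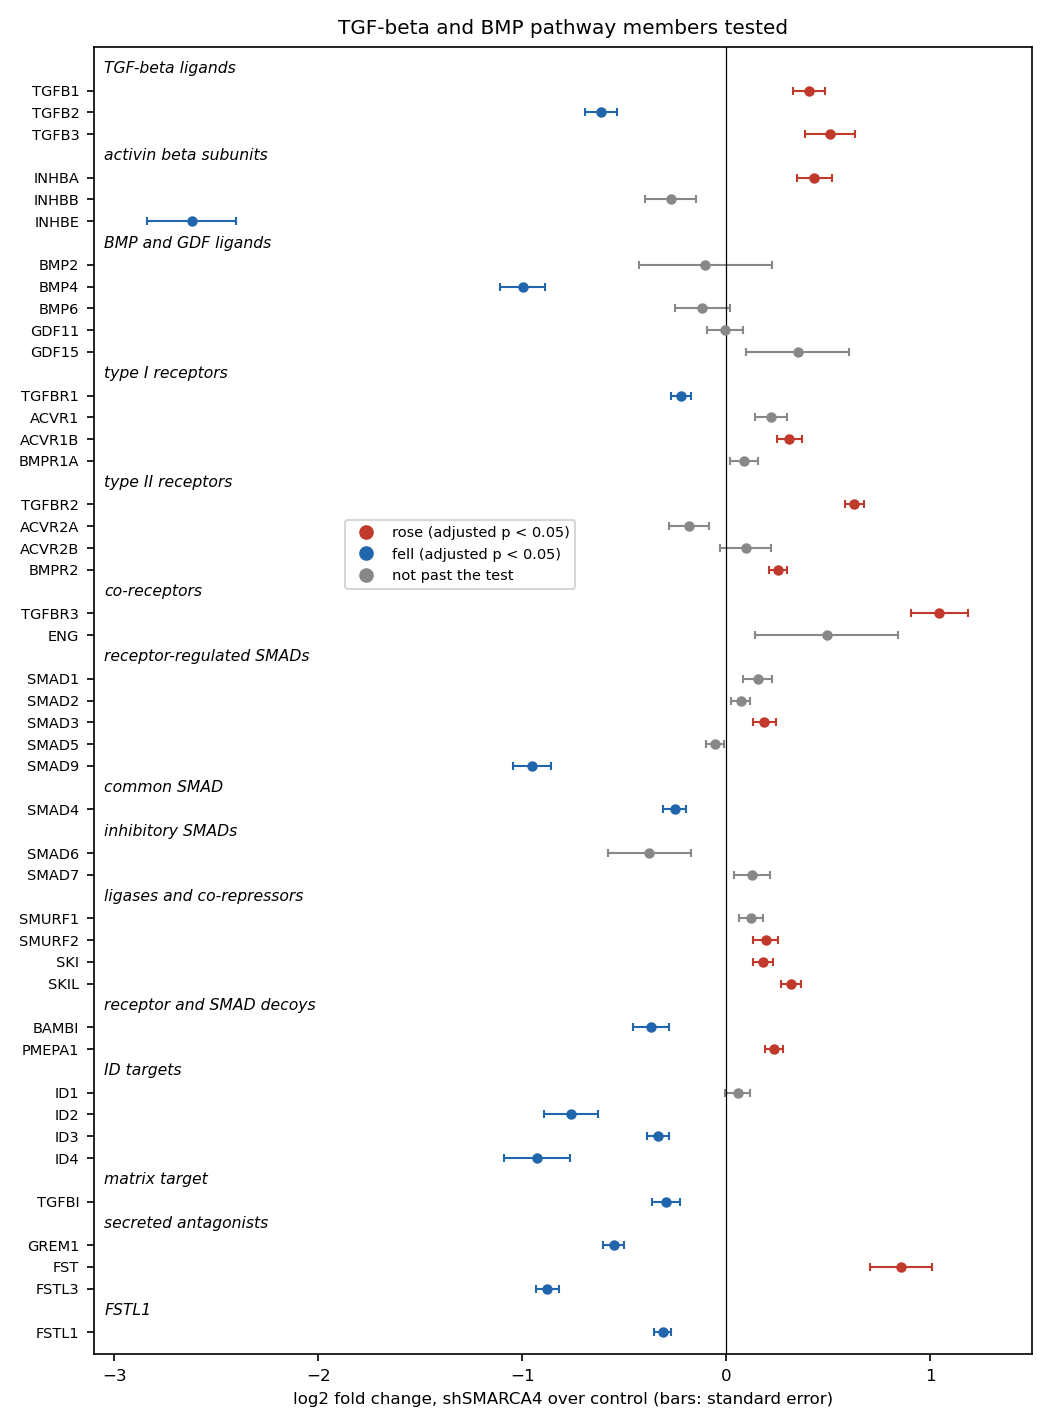
Log2 fold change of shSMARCA4 over control (x axis) for the 44 members tested, ordered by role, with standard errors from edgeR's quasi-likelihood fit of 2 libraries against 2. Red points rose, blue points fell and grey points did not pass the test. Points lie on both sides of 0 in most roles, and INHBE lies farthest from it at -2.62.

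The 3 TGF-beta ligands did not move together. TGFB2, the isoform with the highest level per length in control cells, fell, and TGFB1 and TGFB3 rose. TGFB2 (ENSG00000092969.12, chr1:218345336-218444619, plus strand, hg38) had 179 and 185 CPM in the shSMARCA4 libraries, against 305 and 251 CPM in the control libraries. It was 1.53-fold lower (-0.61 ± 0.0781, edgeR adjusted p = 5.38e-04), and its groups did not overlap although the controls differed from each other. TGFB1 (ENSG00000105329.11, chr19:41330323-41353922, minus strand), the isoform best known from immune and fibrotic tissue, had 67.8 and 71.4 CPM in the shSMARCA4 libraries, against 47.7 and 57.4 CPM in the control libraries. This was 1.33-fold higher (0.41 ± 0.0787, edgeR adjusted p = 0.00468). TGFB3, known for its part in palate closure, had 9.42 and 8.51 CPM in the shSMARCA4 libraries, against 5.76 and 6.85 CPM in the control libraries, and both shSMARCA4 libraries lay above both controls (0.51 ± 0.122, edgeR adjusted p = 0.0128). The TGFB3 call was lost when low counts were kept (edgeR adjusted p = 0.0601).

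Levels per length (RPKM, the CPM per 1000 exon bases) show how the mix of isoforms differed. TGFB2 made up 52.8% and 52.7% of the summed RPKM of the 3 ligands in the shSMARCA4 libraries and 73.4% and 65.3% in the control libraries. TGFB1 made up 42.4% and 43.1% with the hairpin and 24.3% and 31.6% in controls. TGFB3 stayed the least abundant, at 4.77% and 4.16% with the hairpin and 2.37% and 3.06% in controls. The sum itself was 57.8 and 59.8 RPKM in the shSMARCA4 libraries, against 71.0 and 65.6 RPKM in the control libraries. Reads were counted on both strands: 26.6% of TGFB2 exon bases are shared with TGFB2-OT1, a transcript on the same strand, and 6.64% of TGFB1 exon bases lie opposite HNRNPUL1. HNRNPUL1 had 7458 and 7225 counts in the shSMARCA4 libraries and 12026 and 11888 in the controls, so its counts and those of TGFB1 differed in opposite directions. TGFB2-OT1 had 916 and 910 counts in the shSMARCA4 libraries and 1715 and 1387 in the controls, lower with the hairpin like TGFB2, and reads in the shared bases cannot be assigned to either.

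The promoters of the 2 ligands that moved apart are shown for comparison, as the 250 bases before the RefSeq start site on GRCh38.p14, 5′ to 3′. Capitals mark 2 motifs searched on both strands, whose matches can share 1 end base: CAGAC, a SMAD3 and SMAD4 box, and GGCGCC, a GC-rich SMAD site. TGFB2 held 2 CAGAC matches and TGFB1 held neither motif. CAGAC was found in 37.8% and GGCGCC in 16.1% of 27305 promoters of the same length.
TGFB1 (chr19:41353923-41354172, minus strand): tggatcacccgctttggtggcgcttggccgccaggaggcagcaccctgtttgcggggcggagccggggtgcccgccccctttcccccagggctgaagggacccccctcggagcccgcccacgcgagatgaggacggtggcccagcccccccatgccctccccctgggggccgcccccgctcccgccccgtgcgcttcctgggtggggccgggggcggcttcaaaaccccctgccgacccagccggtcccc
TGFB2 (chr1:218345086-218345335, plus strand): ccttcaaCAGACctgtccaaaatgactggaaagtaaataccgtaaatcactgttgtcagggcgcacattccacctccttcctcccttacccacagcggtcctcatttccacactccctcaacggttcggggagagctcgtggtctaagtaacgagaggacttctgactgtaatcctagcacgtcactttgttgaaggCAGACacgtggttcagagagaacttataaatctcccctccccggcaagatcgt

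Among activin subunits, INHBA rose and INHBE fell. INHBA (ENSG00000122641.11, chr7:41685114-41703090, minus strand) encodes the beta A subunit, whose dimer is activin A, a ligand that signals through SMAD2 and SMAD3. It had 231 and 223 CPM in the shSMARCA4 libraries, against 187 and 149.6 CPM in the control libraries, 1.35-fold higher (0.43 ± 0.0848, edgeR adjusted p = 0.00498). The control libraries differed, and without control 2 the log2 fold change was 0.28. The call was lost when low counts were kept (edgeR adjusted p = 0.0552). INHBE (ENSG00000139269.3, chr12:57455307-57458025, plus strand), a subunit known mainly from liver, was the member with the lowest fold change. It had 0.518 and 0.761 CPM in the shSMARCA4 libraries, against 3.81 and 4.06 CPM in the control libraries, 6.15-fold lower (-2.62 ± 0.218, edgeR adjusted p = 5.82e-05), from 15 and 21 counts in the shSMARCA4 libraries and 125 and 131 counts in the controls. INHBB, the beta B subunit, had 8.01 and 8.26 CPM in the shSMARCA4 libraries, against 10.9 and 8.71 CPM in the control libraries and did not pass the test (-0.27 ± 0.124, edgeR adjusted p = 0.134), but it did without control 2. Per length INHBA was the most abundant of the 3, at 37.6 RPKM in shSMARCA4 cells and 27.8 RPKM in control cells.

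Of the 5 tested BMP and GDF ligands, BMP4 alone passed the test (20% called, against 29.7% of all genes tested). BMP4 (ENSG00000125378.16, chr14:53949736-53956825, minus strand), a ligand of the SMAD1, SMAD5 and SMAD9 branch, had 7.84 and 7.79 CPM in the shSMARCA4 libraries, against 17 and 14.2 CPM in the control libraries. Both shSMARCA4 libraries lay below both controls, at a level 2-fold lower (-0.997 ± 0.111, edgeR adjusted p = 2.68e-04). BMP6 stood at -0.12 ± 0.134, BMP2 at -0.10 ± 0.328, GDF11 at -0.01 ± 0.0861 and GDF15, a stress-induced member of the family, at 0.35 ± 0.252. None of these 4 passed (edgeR adjusted p from 0.335 to 0.972), and their groups overlapped. BMP2 and GDF15 rest on a mean of at most 1.59 CPM in either group. The row for BMP7 held 0 counts in all 4 libraries; the table counts 1 transcript per gene, here one of 642 exon bases.

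**Figure D2:**
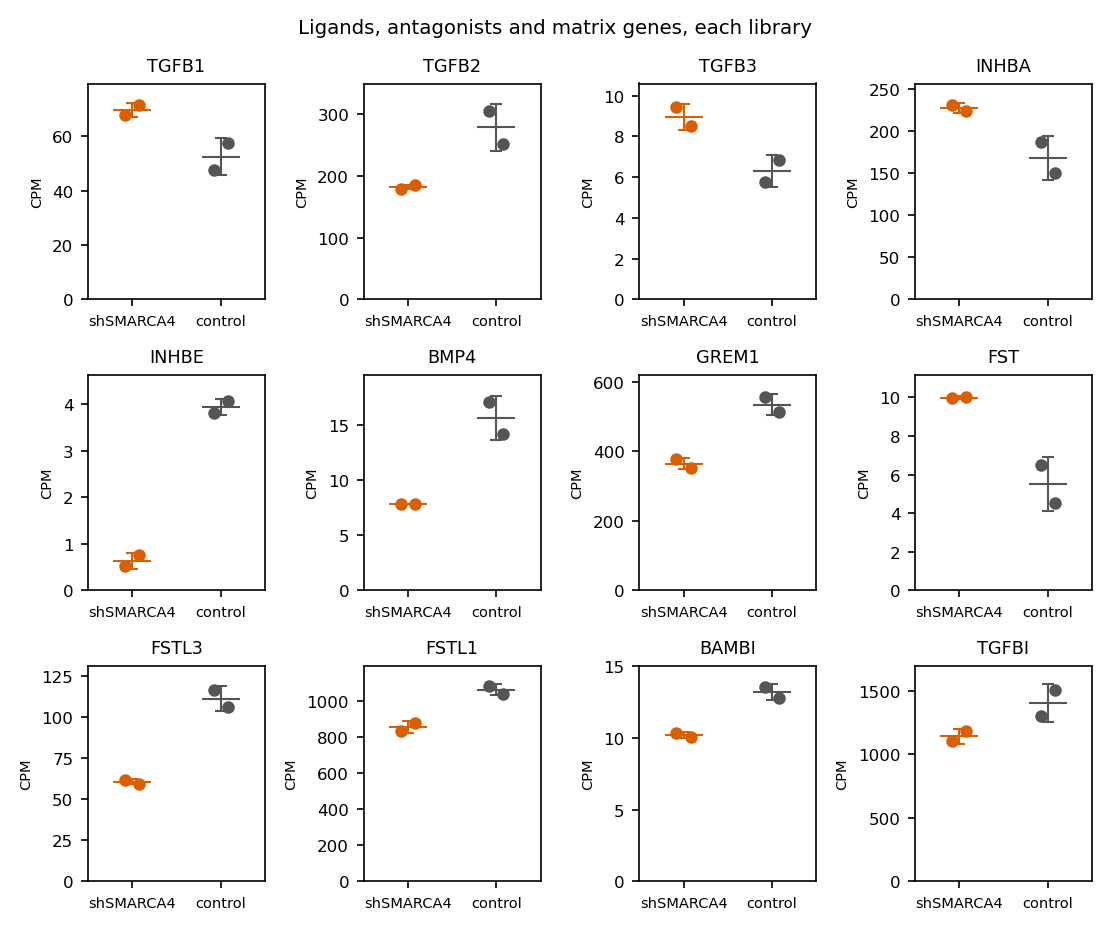
CPM (y axis, from 0) in each library for ligands, secreted antagonists, the decoy BAMBI and matrix genes, shSMARCA4 left of control. Points are the 2 libraries of a group, with horizontal marks at the mean and bars of 1 SD. TGFB2, INHBE, BMP4, GREM1 and FSTL3 sit lower with the hairpin, and TGFB1, INHBA and FST sit higher.

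Receptor transcripts of the TGF-beta branch moved apart. TGFBR2 (ENSG00000163513.19, chr3:30606601-30694142, plus strand), the type II receptor that binds TGF-beta first, rose, with 116 and 122 CPM in the shSMARCA4 libraries, against 75.8 and 78.5 CPM in the control libraries. It was 1.55-fold higher (0.63 ± 0.0463, edgeR adjusted p = 3.18e-05). TGFBR3 (ENSG00000069702.11, chr1:91680343-91886151, minus strand), or betaglycan, a co-receptor that presents TGF-beta 2 to TGFBR2 and binds inhibin, had 6.59 and 5.65 CPM in the shSMARCA4 libraries, against 2.9 and 3.04 CPM in the control libraries. This 2.06-fold higher level was the largest rise among the members (1.05 ± 0.141, edgeR adjusted p = 7.11e-04). The type I receptor TGFBR1 (ENSG00000106799.14, chr9:99105113-99154192, plus strand), by contrast, had 75.1 and 72.1 CPM in the shSMARCA4 libraries, against 88.5 and 83.4 CPM in the control libraries and fell by a small amount (-0.22 ± 0.0491, edgeR adjusted p = 0.0088). Its groups did not overlap. The TGFBR1 call was lost without shSMARCA4 library 2 (log2 fold change -0.19) and with no filter on low counts (-0.22).

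Among receptors shared with activin and BMP, those that passed the test rose. The activin type I receptor ACVR1B (ENSG00000135503.13, chr12:51951699-51997078, plus strand) had 25 and 24.9 CPM in the shSMARCA4 libraries, against 20.1 and 20.2 CPM in the control libraries (0.31 ± 0.0633, edgeR adjusted p = 0.00603). The BMP type II receptor BMPR2 (ENSG00000204217.16, chr2:202376327-202567749, plus strand) had 91.7 and 93.9 CPM in the shSMARCA4 libraries, against 79.2 and 76.5 CPM in the control libraries (0.25 ± 0.0441, edgeR adjusted p = 0.00275). For both, the 2 groups were separate. The BMP type I receptors ACVR1 (0.22 ± 0.0796) and BMPR1A (0.09 ± 0.0698) and the activin type II receptors ACVR2A (-0.18 ± 0.097) and ACVR2B (0.10 ± 0.124) did not pass (edgeR adjusted p from 0.0655 to 0.610). ACVR1 passed with library totals, with the replicate number in the model or without control 2, and ACVR2A without control 2. The endothelial co-receptor ENG averaged 0.675 CPM in shSMARCA4 cells and 0.476 CPM in control cells and did not pass (0.49 ± 0.351). BMPR1B had between 2 and 5 counts in each library. ACVRL1, a receptor of endothelium, had 1 count in each shSMARCA4 library and 6 and 7 counts in the controls. Neither was tested. In all, 4 of the 10 tested receptors and co-receptors rose and 1 fell, against 13.8% and 15.8% of all genes tested.

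Most SMAD transcripts differed little. Of the receptor-regulated SMADs, SMAD9 (ENSG00000120693.15, chr13:36844831-36920238, minus strand), the least abundant SMAD of the BMP branch, fell clearly, with 7.18 and 7.28 CPM in the shSMARCA4 libraries, against 13.6 and 14.4 CPM in the control libraries, 1.94-fold lower (-0.95 ± 0.0929, edgeR adjusted p = 1.30e-04). SMAD5, which made up 66.2% and 66.4% of the summed RPKM of SMAD1, SMAD5 and SMAD9 with the hairpin and 67.5% and 65.0% in controls, stood at -0.05 ± 0.0453. SMAD9 made up 4.54% and 4.84% of that sum with the hairpin and 8.42% and 9.03% in controls, and SMAD1 stood at 0.16 ± 0.0705, past the test only without control 2. SMAD3, a transducer of TGF-beta and activin, rose by a small amount, with 95.2 and 99.4 CPM in the shSMARCA4 libraries, against 81.2 and 89.6 CPM in the control libraries (0.19 ± 0.055, edgeR adjusted p = 0.0303). Without control 1 the SMAD3 value was 0.12. SMAD2, its partner, stood at 0.07 ± 0.0479 and did not pass.

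The common mediator SMAD4 (ENSG00000141646.16, chr18:51030213-51085042, plus strand) fell, with 65 and 60.5 CPM in the shSMARCA4 libraries, against 71.9 and 77.6 CPM in the control libraries, 1.19-fold lower (-0.25 ± 0.0564, edgeR adjusted p = 0.00957). The groups of SMAD3 and of SMAD4 did not overlap, but both calls were lost without shSMARCA4 library 2 and with no filter on low counts, and that of SMAD3 also with DESeq2. SMAD6 and SMAD7, inhibitory SMADs that signalling itself induces, did not pass: SMAD7 averaged 17.3 CPM in shSMARCA4 cells and 15.8 CPM in control cells (0.13 ± 0.0889, edgeR adjusted p = 0.318), and SMAD6 averaged 1.51 CPM in shSMARCA4 cells and 1.95 CPM in control cells (-0.38 ± 0.203, edgeR adjusted p = 0.2). SMAD2 was counted over a transcript of 34605 exon bases, so its level per length is not set beside the others.

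Among the intracellular ligases and co-repressors that restrain SMAD signalling, the changes were small. SMURF1, SMURF2, SKI and SKIL all lay above 0, and 3 of the 4 rose, against 13.8% of all genes tested. With no filter on low counts 1 of the 4 rose, and 9.08% of all genes tested were called in either direction. SKIL, or SnoN, a co-repressor that binds SMADs and is a known early target of TGF-beta, had 164 and 169.7 CPM in the shSMARCA4 libraries, against 129 and 138 CPM in the control libraries, 1.25-fold higher (0.32 ± 0.0476, edgeR adjusted p = 0.00122). Its relative SKI averaged 74.9 CPM in shSMARCA4 cells and 66.1 CPM in control cells (0.18 ± 0.0501), and SMURF2, a ubiquitin ligase that acts on SMADs and receptors, averaged 161 CPM in shSMARCA4 cells and 141 CPM in control cells (0.19 ± 0.0599). The SKI call was lost with DESeq2, without shSMARCA4 library 1 or with no filter, and the SMURF2 call without shSMARCA4 library 2 or with no filter. The SMURF2 value was 0.30 without control 1 and 0.10 without control 2. SMURF1 stood at 0.12 ± 0.0594 (edgeR adjusted p = 0.152) and passed with library totals or without control 1.

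The 2 decoys moved in opposite directions. PMEPA1, a TGF-beta-induced membrane protein that keeps SMAD2 and SMAD3 from the receptor, rose, with 89 and 89.6 CPM in the shSMARCA4 libraries, against 73.9 and 77.8 CPM in the control libraries (0.24 ± 0.0456, edgeR adjusted p = 0.00467). Of its exon bases 6.10% lie opposite NKILA, whose counts were also higher with the hairpin, at 355 and 308 against 227 and 231 in controls, and the reads of the 2 genes cannot be told apart there. BAMBI, a pseudoreceptor without a kinase domain, fell, with 10.4 and 10.0 CPM in the shSMARCA4 libraries, against 13.6 and 12.8 CPM in the control libraries (-0.37 ± 0.0882, edgeR adjusted p = 0.0128). The BAMBI call was lost with DESeq2 (adjusted p = 0.0612), without shSMARCA4 library 2 (adjusted p = 0.0745) and with no filter (adjusted p = 0.0510), the last 2 by edgeR.

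**Figure D3:**
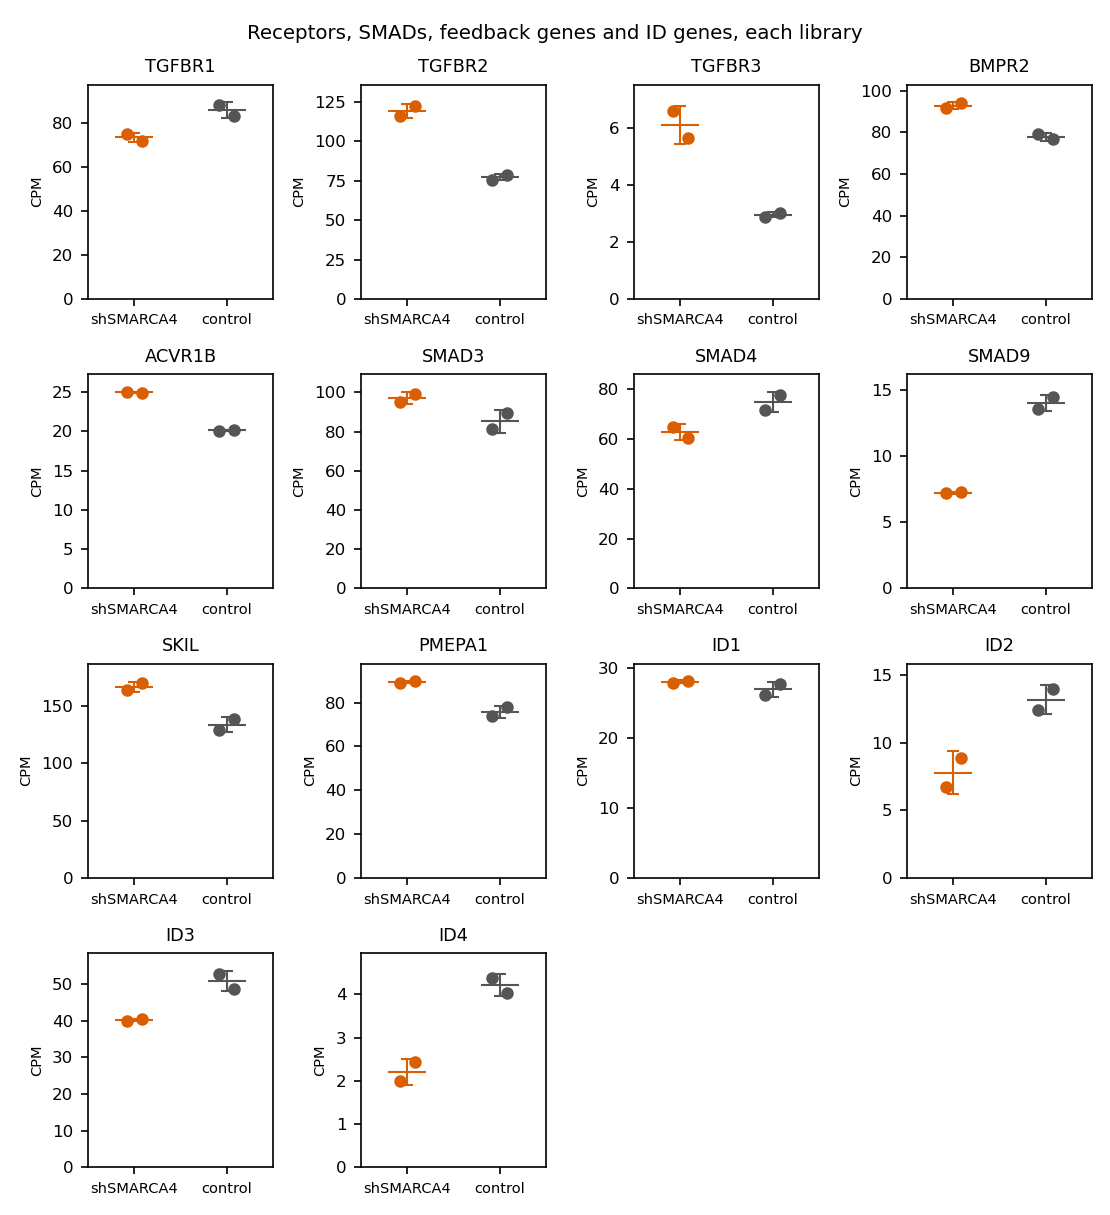
CPM (y axis, from 0) in each library for receptors, SMADs, feedback genes and the ID genes, shSMARCA4 left of control. Points are the 2 libraries of a group, with horizontal marks at the mean and bars of 1 SD. TGFBR2, TGFBR3 and SKIL sit higher with the hairpin, SMAD9, ID2, ID3 and ID4 sit lower, and ID1 is nearly level.

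Of the ID genes, whose proteins block basic helix-loop-helix factors and which are classic direct targets of BMP SMADs, 3 fell and ID1 did not pass the test. Over all genes tested, 15.8% fell. ID2 (ENSG00000115738.10, chr2:8678845-8684453, plus strand) had 6.7 and 8.91 CPM in the shSMARCA4 libraries, against 12.4 and 14 CPM in the control libraries, 1.7-fold lower (-0.76 ± 0.133, edgeR adjusted p = 0.00282). ID4 (ENSG00000172201.12, chr6:19837370-19842197, plus strand) had 2 and 2.43 CPM in the shSMARCA4 libraries, against 4.39 and 4.03 CPM in the control libraries, 1.9-fold lower (-0.93 ± 0.162, edgeR adjusted p = 0.00278). ID3 (ENSG00000117318.9, chr1:23557926-23559501, minus strand), the most abundant of the family per length, fell by less, with 39.9 and 40.4 CPM in the shSMARCA4 libraries, against 52.6 and 48.7 CPM in the control libraries (-0.34 ± 0.0552, edgeR adjusted p = 0.00205). In all of these 3 genes both shSMARCA4 libraries lay below both controls. ID1 (ENSG00000125968.9, chr20:31605283-31606515, plus strand) had 27.9 and 28.2 CPM in the shSMARCA4 libraries, against 26.2 and 27.7 CPM in the control libraries, and its small difference of 0.06 ± 0.061 did not pass (edgeR adjusted p = 0.526). Whether ID1 differed in its response from the other ID genes was not tested. The 3 calls held under all 12 alternatives run.

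The summed level of the 4 ID genes was 68.7 and 70.7 RPKM in the shSMARCA4 libraries, against 84.2 and 82.0 RPKM in the control libraries. ID3 gave 61.5% and 60.5% of it with the hairpin and 66.1% and 62.9% in controls, and ID1 gave 33.0% and 32.4% with the hairpin and 25.3% and 27.5% in controls. ID2 and ID4 together were a small part in every library.

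**Figure D4:**
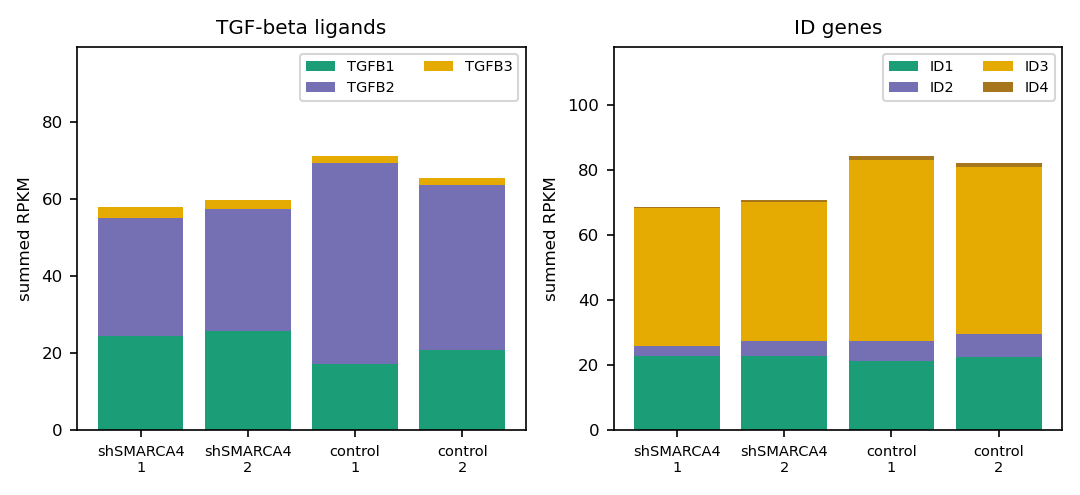
Summed RPKM (y axis, from 0) of the TGF-beta ligands and of the ID genes in each library, split by gene, with the shSMARCA4 libraries left of the control libraries. TGFB2 gives 52.8% and 52.7% of the ligand sum with the hairpin and 73.4% and 65.3% in controls, and ID3 gives the largest part of the ID sum in all 4 libraries.

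The ID promoters are shown because 3 of these genes fell and 1 did not pass, again as the 250 bases before the RefSeq start on GRCh38.p14, with CAGAC and GGCGCC matches in capitals. ID3 and ID4 held 1 CAGAC match each, ID1 and ID2 held none, and none of the 4 windows held GGCGCC. Bases farther upstream were not searched, here or for the other promoters, so a gene without a match may hold sites there. For ID2 the RefSeq start lies 3211 bases downstream of the start of the counted transcript, and for ID1 6 bases downstream.
ID1 (chr20:31605039-31605288, plus strand): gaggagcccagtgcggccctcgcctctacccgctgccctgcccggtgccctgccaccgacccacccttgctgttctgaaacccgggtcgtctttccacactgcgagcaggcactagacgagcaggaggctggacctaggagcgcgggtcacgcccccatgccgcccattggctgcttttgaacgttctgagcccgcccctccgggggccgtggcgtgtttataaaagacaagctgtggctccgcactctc
ID2 (chr2:8681806-8682055, plus strand): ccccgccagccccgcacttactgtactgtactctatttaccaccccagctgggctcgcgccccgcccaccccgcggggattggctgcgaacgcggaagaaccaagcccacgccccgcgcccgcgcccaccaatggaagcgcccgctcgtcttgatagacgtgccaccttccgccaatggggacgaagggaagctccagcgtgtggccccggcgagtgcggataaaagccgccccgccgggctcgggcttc
ID3 (chr1:23559502-23559751, minus strand): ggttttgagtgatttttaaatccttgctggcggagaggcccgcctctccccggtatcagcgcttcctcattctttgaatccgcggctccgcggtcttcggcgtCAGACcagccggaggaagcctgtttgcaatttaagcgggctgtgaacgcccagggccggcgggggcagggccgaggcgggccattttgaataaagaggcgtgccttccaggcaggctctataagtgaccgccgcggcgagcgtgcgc
ID4 (chr6:19837120-19837369, plus strand): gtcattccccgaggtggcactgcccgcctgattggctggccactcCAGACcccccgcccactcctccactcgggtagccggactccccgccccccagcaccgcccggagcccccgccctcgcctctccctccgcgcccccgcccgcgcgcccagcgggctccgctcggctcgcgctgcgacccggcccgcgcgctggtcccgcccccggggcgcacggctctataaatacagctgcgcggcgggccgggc

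Secreted antagonists also moved apart. GREM1 (ENSG00000166923.12, chr15:32718004-32745106, plus strand), gremlin, which binds BMP2 and BMP4, fell, with 376 and 353 CPM in the shSMARCA4 libraries, against 555 and 513 CPM in the control libraries, 1.47-fold lower (-0.55 ± 0.0507, edgeR adjusted p = 9.77e-05). GREM1 and its ligand BMP4 were both lower, and per length GREM1 exceeded BMP4 in both groups, with 25 RPKM in shSMARCA4 cells and 36.7 RPKM in control cells against 4.06 RPKM in shSMARCA4 cells and 8.1 RPKM in control cells for BMP4. FSTL3 (ENSG00000070404.10, chr19:676392-683385, plus strand), a follistatin-like inhibitor of activin and myostatin, had 61.7 and 59.5 CPM in the shSMARCA4 libraries, against 116 and 106 CPM in the control libraries, 1.83-fold lower (-0.88 ± 0.0555, edgeR adjusted p = 1.61e-05). FST (ENSG00000134363.12, chr5:53480626-53487106, plus strand), follistatin itself, rose, with 9.94 and 10.0 CPM in the shSMARCA4 libraries, against 6.49 and 4.52 CPM in the control libraries, 1.81-fold higher (0.86 ± 0.153, edgeR adjusted p = 0.00315). The 2 groups were separate for all 3 antagonists. CHRD, chordin, had between 0 and 3 counts in each library and was not tested.

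FST and FSTL3 share the activin-binding role, and their summed level was 28.7 and 27.8 RPKM in the shSMARCA4 libraries, against 49.3 and 44.3 RPKM in the control libraries. FSTL3 made up 86.3% and 85.7% of that sum with the hairpin and 94.8% and 96.0% in controls. Their promoters are shown as a pair of related genes that moved in opposite directions. FSTL3 held 1 GGCGCC match, and FST held neither motif.
FST (chr5:53480379-53480628, plus strand): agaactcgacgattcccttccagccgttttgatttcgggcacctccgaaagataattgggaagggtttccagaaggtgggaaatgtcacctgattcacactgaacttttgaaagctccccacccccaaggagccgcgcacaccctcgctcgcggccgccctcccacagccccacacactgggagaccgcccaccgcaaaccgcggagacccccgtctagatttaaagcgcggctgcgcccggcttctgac
FSTL3 (chr19:676142-676391, plus strand): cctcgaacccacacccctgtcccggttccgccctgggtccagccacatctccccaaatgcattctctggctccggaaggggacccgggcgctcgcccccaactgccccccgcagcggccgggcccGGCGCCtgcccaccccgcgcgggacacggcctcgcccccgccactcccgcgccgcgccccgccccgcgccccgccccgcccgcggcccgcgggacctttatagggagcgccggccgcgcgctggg

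Over the 43 members with a RefSeq promoter, 16 (37.2%) held GGCGCC and 14 (32.6%) held CAGAC. The median GC content of these promoters was 70.4%, against 58.0% over all promoters searched, so the GC-rich motif is not compared further. The RefSeq start lay within 100 bases of the counted transcript's start for 33 of the 43.

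The most abundant members per length were secreted proteins of the matrix, and they fell slightly. TGFBI, a TGF-beta-induced matrix protein, had 1102 and 1185 CPM in the shSMARCA4 libraries, against 1298 and 1507 CPM in the control libraries (-0.29 ± 0.0668, edgeR adjusted p = 0.0101), and averaged 427 RPKM in shSMARCA4 cells and 523 RPKM in control cells. The TGFBI value was -0.18 without control 2, and its call was lost when low counts were kept (edgeR adjusted p = 0.0623). FSTL1, a secreted glycoprotein related to follistatin and reported to modulate BMP signalling, had 834 and 880.3 CPM in the shSMARCA4 libraries, against 1086 and 1041 CPM in the control libraries (-0.31 ± 0.0431, edgeR adjusted p = 8.20e-04). The groups of neither gene overlapped. The sums of 2 marker lists were lower with the hairpin too. Fibroblast or smooth muscle markers summed to 439 and 461 CPM with the hairpin and 886 and 851 CPM in controls. Secretory markers summed to 1262 and 1265 CPM with the hairpin and 1853 and 1747 CPM in controls. Whether TGFBI and FSTL1 are linked to either list was not tested.

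The wider pathway was read from lists of 106 other tested genes, of which 18 rose and 32 fell (47.2% called, against 29.7% of all genes tested), with a median of -0.03. These lists too were chosen with earlier results of these data known. Of 20 tested latency and activation genes, 7 rose and 6 fell. FURIN, the convertase that cleaves TGF-beta and BMP precursors, was 2.09-fold lower, with 38.1 and 41.7 CPM in the shSMARCA4 libraries, against 83.9 and 82.7 CPM in the control libraries (edgeR adjusted p = 5.95e-06). TLL1, a protease that cuts chordin, was 4.26-fold lower (-2.09 ± 0.218, edgeR adjusted p = 1.91e-04). Of the LTBP family, LTBP2 (0.60 ± 0.0472) and LTBP1 (0.74 ± 0.106) rose, and LTBP3 (-5e-04 ± 0.0796) and LTBP4 (0.02 ± 0.065) did not pass. The integrin subunit ITGB8 (0.61 ± 0.0426), whose dimer with alpha V activates latent TGF-beta, and the protease MMP2 (0.63 ± 0.0677) also rose. Alpha V itself, ITGAV (-0.48 ± 0.039), fell. LTBP1, LTBP3 and LTBP4 were named after their values were seen.

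Targets did not move as a block. Of 24 tested TGF-beta and SMAD3 target genes, 4 rose and 10 fell (58.3% called, against 29.7% of all genes tested, of which 13.8% rose and 15.8% fell), with a median of -0.08. TAGLN had 108 and 115 CPM in the shSMARCA4 libraries, against 337 and 295 CPM in the control libraries (-1.50 ± 0.0651), and the smooth muscle actin ACTA2 (-1.46 ± 0.108), the collagen cross-linker LOX (-1.38 ± 0.0504), the protease inhibitor TIMP3 (-1.08 ± 0.0624) and the cytokine IL11 (-0.86 ± 0.0773) also fell. The transglutaminase TGM2 (0.83 ± 0.0423) rose, with 263 and 276 CPM in the shSMARCA4 libraries, against 153 and 149 CPM in the control libraries. CCN2, named after its values were seen, stood at 0.23 ± 0.0983 and did not pass. TAGLN and ACTA2 are also among the fibroblast or smooth muscle markers. Of 8 tested BMP target genes, 2 rose and 3 fell (62.5% called): TBX3 (0.69 ± 0.0563) and the antagonist NOG rose, and RUNX2 (-0.30 ± 0.0563), DLX3 (-1.56 ± 0.339) and ATOH8 (-0.83 ± 0.208) fell, the last not without shSMARCA4 library 2 or with DESeq2. DLX3 stood at -2.48 without shSMARCA4 library 1 and at -1.03 without shSMARCA4 library 2, and without control 1 the BMP targets that rose numbered 4.

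Among the other antagonists, ligands, receptors and regulators, NOG rose and BGN fell by more than 1 on the log2 scale. NOG, noggin, which binds BMPs, had 7.04 and 6.48 CPM in the shSMARCA4 libraries, against 2.9 and 2.88 CPM in the control libraries, 2.34-fold higher (1.23 ± 0.13, edgeR adjusted p = 2.04e-04). Among 11 other secreted antagonists 2 rose and 2 fell (36.4% called), with NOG and TWSG1 (0.16 ± 0.0391) higher and the proteoglycan BGN (-1.26 ± 0.109) and the protease HTRA1 (-0.52 ± 0.0978) lower. TWSG1 did not pass without either shSMARCA4 library. Of 33 intracellular regulators, 2 rose and 8 fell, 30.3%, near the share of all genes. These counts were unstable: 4 fell when either shSMARCA4 library was left out or with DESeq2, and 5 rose and 5 fell with library totals. The number that rose was 6 without control 1 and 1 without shSMARCA4 library 2, and no call of a rise was left without shSMARCA4 library 1 or with DESeq2. The SMAD-binding repressor ZEB2 (-0.55 ± 0.0656) had the largest change among them, and the endosomal adaptor HGS (-0.26 ± 0.0439), CITED2 (-0.28 ± 0.0509), the nuclear envelope protein LEMD3 (-0.31 ± 0.0625), the acetyltransferase CREBBP (-0.19 ± 0.0425) and the SMAD anchor ZFYVE9 (0.20 ± 0.0498) changed by small amounts. The calls of CREBBP and ZFYVE9 were lost with DESeq2 or without either shSMARCA4 library. Of 7 other ligands 2 fell, GDF6 (-0.46 ± 0.14) and AMH (-0.74 ± 0.234). These 2 of 7 (28.6%) are near the 29.7% of all genes called. The GDF6 call was lost without control 1 (log2 fold change -0.20) or with limma-voom, and the AMH call without control 2 (-0.51), without shSMARCA4 library 1 (-0.46) or with DESeq2. Of 5 other receptors and co-receptors, NRP1 (0.35 ± 0.0525) and RGMB (0.20 ± 0.0515) rose and SDC2 (-0.18 ± 0.0589) fell, and the calls of RGMB and SDC2 were lost without either shSMARCA4 library or with DESeq2, that of SDC2 also without control 1 (-0.09) and with RLE scaling, library totals or limma-voom. With no filter on low counts the calls of TWSG1, CREBBP, ZFYVE9, LEMD3, DLX3, ATOH8, GDF6, AMH, RGMB and SDC2 were lost as well.

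**Figure D5:**
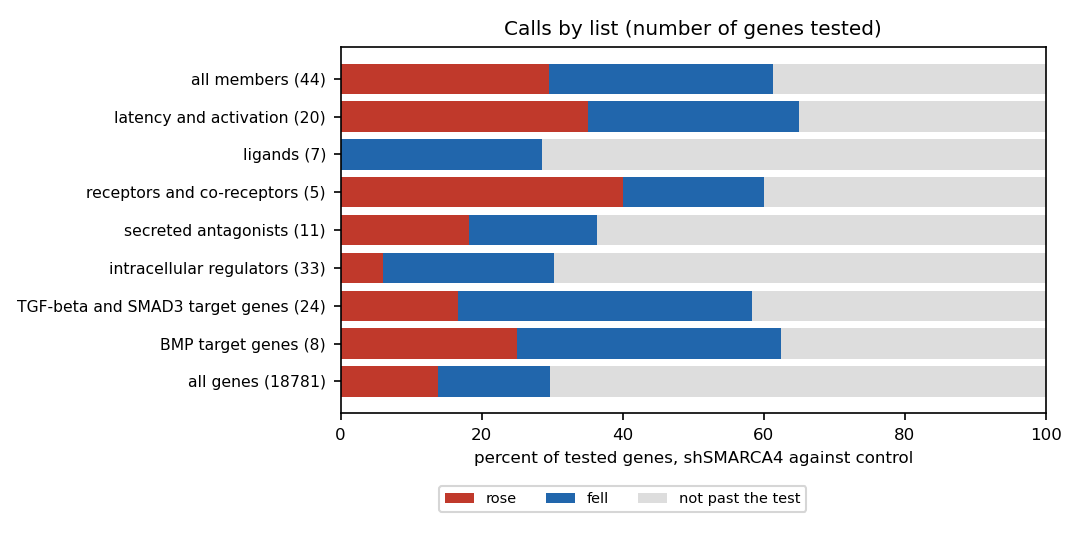
Percent of tested genes (x axis) that rose, fell or did not pass the test at an adjusted p under 0.05 by edgeR, for the members, for 7 lists of other pathway genes and for all genes, with the number tested in brackets. Members were called in 61.4% and all genes in 29.7%, and the bar of intracellular regulators, at 30.3%, is close to that of all genes.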

How the data were processed

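The authors deposited raw counts per gene, made with HOMER over exons of GENCODE release 45 on hg38, counting both strands and 1 transcript per gene without normalization, per the file headers. Overlapping and antisense genes therefore share reads. STAR 2.6.1c and DESeq2 1.19.38 are named in the submitters' processing notes. Of 6 libraries in the header's command, the 4 with samples in this series were used.

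Genes were kept by filterByExpr (count minimum 10), scaled by trimmed means of M values and tested in R 4.3.3 with edgeR 4.0.16 (glmQLFit, glmQLFTest, two-sided). P-values were adjusted by Benjamini-Hochberg across the whole table, with calls under 0.05. An exact permutation test of 2 libraries against 2 cannot go below p = 0.33, so none was run. CPM is the count per 1e+06 of the scaled library total, and RPKM is CPM per 1000 exon bases. The standard error divides the absolute log2 fold change by the square root of F. The fit was tested on simulated data. Exon overlap came from GENCODE release 29. Members not noted above also share exon bases with other genes, among them SMURF1 (11.7%), ACVR2A (7.98%), ENG (7.95%) and SMAD4 (7.37%). limma 3.58.1 and DESeq2 1.42.0 served as alternatives.

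Members and lists were chosen with earlier results of these data known. All members were reported, with up to 6 genes per other list by smallest adjusted p. Promoters came from RefSeq (GRCh38.p14), and 5 members had no entry there. Members left untested had at most 7 counts in any library. A result for 1 item is not reported here.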

Additional observations from a re-analysis of the deposited data

How the results depend on the processing

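Of 27 member calls, 18 held under all 12 alternatives and none changed sign. BMP2, GDF11 and ACVR2B, which were not called, changed sign between settings, BMP2 from -0.50 to 0.29. Calls lost were 9 with no filter on low counts (TGFB3, INHBA, TGFBR1, SMAD3, SMAD4, SMURF2, SKI, BAMBI and TGFBI), 3 with DESeq2, 1 (SKI) when shSMARCA4 library 1 was left out and 5 when shSMARCA4 library 2 was left out. With no filter 8 members rose, 1403 genes rose and 1784 fell, and 10 other pathway genes rose and 21 fell, with 35109 genes tested. With DESeq2 1625 genes rose and 1930 fell. Leaving out each library in turn gave 11 to 15 members risen and 11 to 16 fallen, 1724 to 3618 genes risen and 2077 to 3828 fallen, and 13 to 28 other pathway genes risen and 25 to 37 fallen. In such fits the lone library is assumed to vary like the other group. These fits held fewer libraries and tested more genes, and the cause of the shifts was not tested. Other scaling moved the median of all genes by at most 0.0491 (log2).

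Replicate numbers are shared between groups, but nothing in the labels pairs the libraries, and the deviations of same-numbered libraries correlated at 0.119 across genes. With the replicate block 14 members rose and 14 fell, 3187 genes rose and 3562 fell, and 21 other pathway genes rose and 34 fell. Depth limits BMP2, GDF15, ENG and SMAD6, each under 2 CPM on average, and the 4 members not tested.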
